A study of Mus musculus with 6 samples.

Results

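The 10 genes described here encode the transcription factor NRF2 (Nfe2l2), its inhibitor KEAP1 (Keap1) and 8 genes known as NRF2 targets (Hmox1, Nqo1, Gclc, Gclm, Srxn1, Slc7a11, Osgin1 and Gsr). They were chosen by name and are 10 of the 19423 genes in the deposited table; all 10 were found and all 10 passed the filter on low counts. RNA was sequenced from whole ovaries of female balb/c-nude mice, an immunodeficient strain that can host human tumor cells. The 3 Tumor libraries came from mice injected under the skin with cells the labels call MBA-MD-231, the 3 Control libraries from control mice of the same strain, and all 6 are labelled day 80. The labels do not say what the days are counted from, and the treatment label of the Tumor samples counts the last digit of the cell name upward while their cell line label stays the same. The study's title links breast tumors to oxidative stress and follicle loss, so the comparison of Tumor with Control asks whether the ovary's oxidative stress genes differ in mice that carry a tumor.

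NRF2 is made continuously and, in unstressed cells, is bound by KEAP1 and marked for degradation by the proteasome. Oxidants and electrophiles modify cysteines of KEAP1, NRF2 then accumulates, pairs with small MAF proteins and activates genes with antioxidant response elements. Its control therefore lies largely at the level of the protein, and RNA levels of Nfe2l2 do not measure its activity. In the ovary, heme oxygenase, glutathione synthesis and the thioredoxin and sulfiredoxin systems take part in the defense against oxidants formed during ovulation and steroid hormone synthesis.

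The libraries held between 18278614 and 18482073 estimated counts in Tumor and between 18804610 and 19238900 in Control. Levels are given as CPM, counts scaled to a common library size. For a count of 0, 3 counts are an approximate upper limit, for counting error only, and equal 0.156 to 0.164 CPM. Markers of the labelled tissue were present, with no oocyte or granulosa marker at 0 in any library. Their summed CPM was 727 to 797 in Tumor and 402 to 517 in Control for 12 oocyte genes, and 4244 to 7168 in Tumor and 4677 to 5457 in Control for 12 granulosa genes. Tumor replicate 1 stood apart: its luteal markers summed to 2785 CPM, against 8770 and 9413 CPM in Tumor replicates 2 and 3, and its adipocyte markers to 9323 CPM, against 1053 and 4086 CPM. Its oviduct markers summed to 2107 CPM, against 150 and 47.0 CPM. Control libraries were uneven too. Oviduct markers summed to 2239, 2197 and 523 CPM in Control replicates 1, 2 and 3, and theca markers to 3738, 6479 and 3670 CPM. Fold changes also followed gene length. Before correction, the median log2 fold change of Tumor over Control was -0.27 in the shortest of 5 equal groups of genes and 0.24 in the longest; after correction those medians were -0.015 and 0.013. The cause of the trend was not tested. Unless stated otherwise, levels below are CPM with this length trend removed in each library, fold changes are log2 of Tumor over Control from the length-corrected fit, and adjusted p-values are from edgeR's quasi-likelihood test over all 15787 genes tested.

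The plot of fold change against gene length places the 10 genes on that trend. Hmox1 and Nqo1 are short, with effective lengths of 1527 and 1503 bases, and their uncorrected log2 fold changes of -1.63 and -1.05 became -1.43 and -0.86 once the trend was removed. Slc7a11, at 8934 bases the longest of the 10, had 0.93 before and 0.63 after. Nfe2l2, Keap1, Srxn1, Gclc and Gsr lie between 2448 and 3225 bases, and the correction shifted each of them by less than 0.1.

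**Figure D1:**
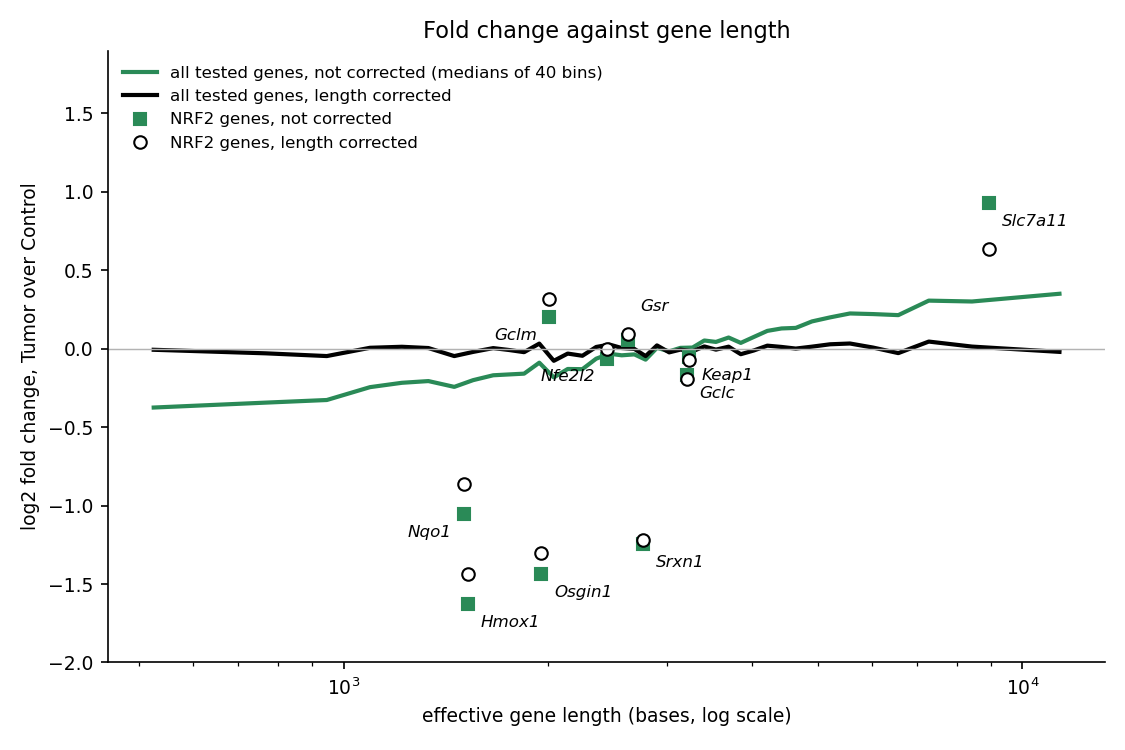
Log2 fold change of Tumor over Control against effective gene length on a log axis, with lines for the medians of all tested genes in 40 bins and points for the 10 NRF2 genes, each before and after the length correction. The uncorrected line climbs with length and the corrected line stays near 0, while Hmox1, Srxn1, Nqo1 and Osgin1 lie well below both.

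The RNA of the regulators hardly differed. In the edgeR test 1 of the target genes fell with the length correction, and 2 more passed without it. Hmox1 fell to 37.0% of the Control level. Srxn1 and Nqo1 were also lower in every Tumor library than in any Control library, but their adjusted p was 0.0505 and 0.0573. The genes of glutathione synthesis and reduction, Gclc, Gclm and Gsr, did not pass in either fit. Thus 1 of the 10 genes was called, as a fall, where 2.29% of all tested genes were called and 1.31% were called lower. Without the correction 3 of the 10 were called, all as falls, where 7.71% of all tested genes were called and 3.91% were called lower. The median log2 fold change of the 10 genes was -0.13, against -0.0018 over all 15787. Tumor and Control libraries were fully separate for 4 of the 10 genes, Hmox1, Srxn1, Nqo1 and Gclm, and for 33.0% of all tested genes.

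**Figure D2:**
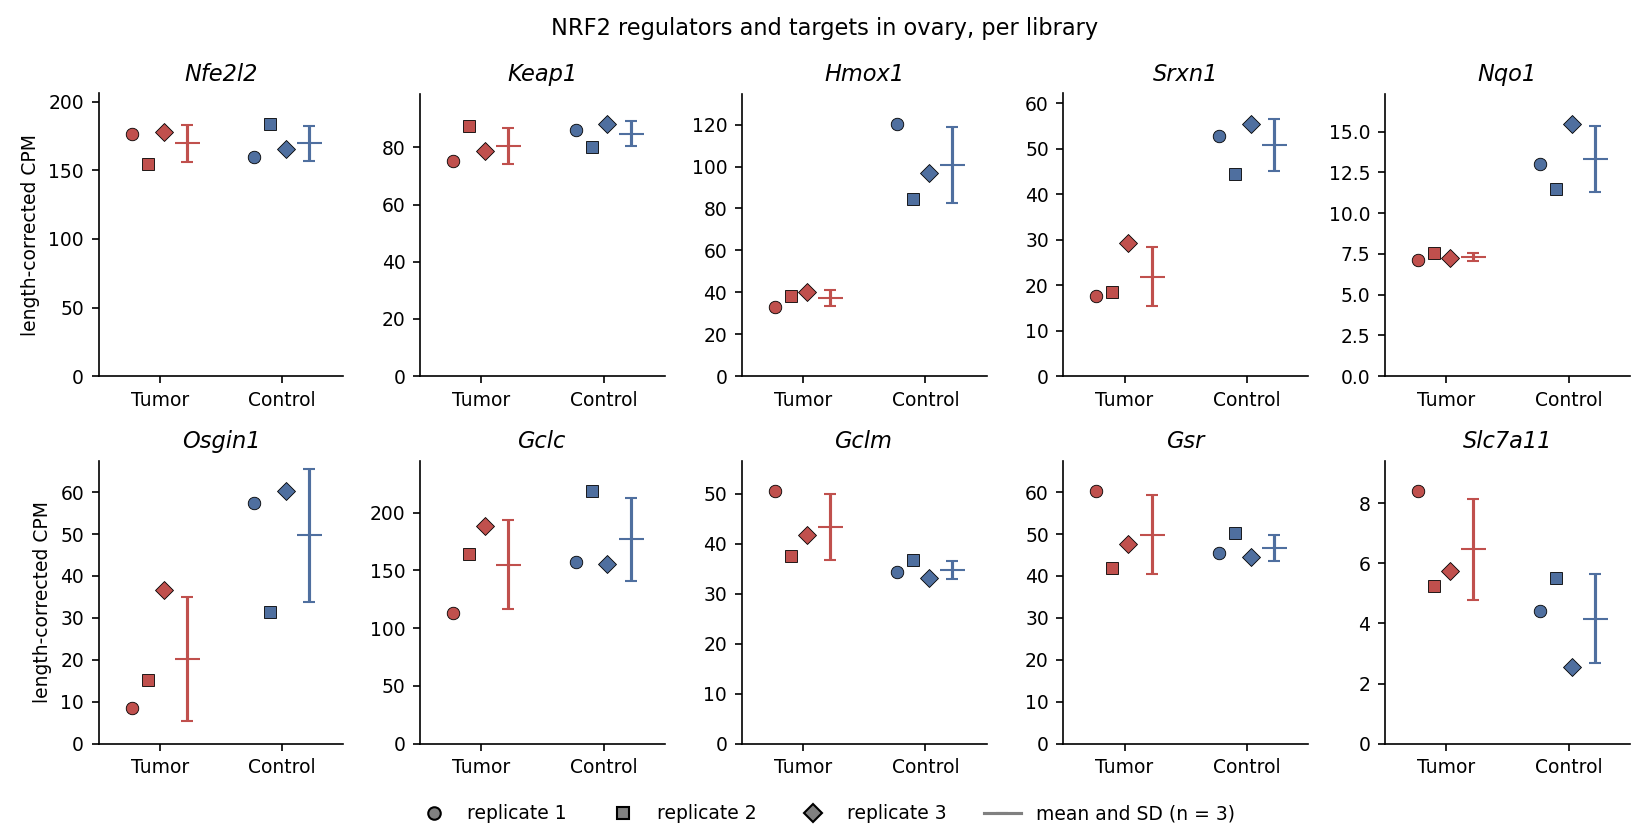
Length-corrected CPM of the 10 genes in each library, Tumor left and Control right, with the mean and SD of 3 libraries beside the points; each panel's axis starts at 0. Hmox1, Srxn1 and Nqo1 lie lower in all 3 Tumor libraries, Gclm lies higher, and Nfe2l2, Keap1, Gclc and Gsr overlap.

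Nfe2l2 (NCBI gene 18024; chr2:75675513-75704663, minus strand, GRCm38.p6), the gene of NRF2 itself, was on average the most abundant of the 10 per length in both groups. In Control its mean of 69.2 FPKM was close to the 69.1 FPKM of Hmox1, and their ranges overlapped. Nfe2l2 reached 176, 154 and 178 CPM in the Tumor libraries 1, 2 and 3, against 159, 184 and 166 CPM in Control replicates 1, 2 and 3. The groups overlapped throughout, and the log2 fold change was -0.0011 ± 0.097 (SE), with an adjusted p of 0.995. Keap1 (NCBI gene 50868; chr9:21229730-21239332, minus strand), the substrate adaptor that hands NRF2 to a CUL3 ubiquitin ligase, stood at 75.3, 87.5 and 78.9 CPM in Tumor and at 86.2, 80.1 and 88.2 CPM in Control. Its log2 fold change was -0.074 ± 0.087 (SE), with an adjusted p of 0.642. The ratio of Keap1 to Nfe2l2 FPKM, a level per length, was 0.373 ± 0.062 in Tumor and 0.371 ± 0.036 in Control (SD, n = 3 each). Here and below, the length trend was not removed from FPKM. Neither sign was stable: Nfe2l2 turned above 0 without Tumor replicate 2 (0.056) or Control replicate 2 (0.065), and Keap1 with the GC correction (0.15 in place of length, 0.098 with it).

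Hmox1 (NCBI gene 15368; chr8:75093618-75100593, plus strand) encodes the inducible heme oxygenase, which opens heme to biliverdin, iron and carbon monoxide. Its levels were 33.1, 38.4 and 40.3 CPM in the Tumor libraries 1, 2 and 3, against 120, 84.7 and 97.0 CPM in Control replicates 1, 2 and 3. The highest Tumor library therefore lay below the lowest Control library, and the 3 Tumor libraries lay closer together than the Control ones. Hmox1 fell by 1.43 ± 0.15 (SE) on the log2 scale, with an adjusted p of 0.0262. In raw terms the libraries held 591, 680 and 697 estimated reads in Tumor and 2533, 1588 and 1910 in Control, all from the single transcript listed. The fall was between -1.54 and -1.29 with any 1 library left out. Its call ended without Tumor replicate 2 (adjusted p = 0.0778), Tumor replicate 3 (0.110), Control replicate 1 (0.136) or Control replicate 3 (0.102), where no gene of the whole table passed. In RNA from whole ovary, fewer cells of a type and less RNA per cell cannot be told apart.

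Per length, Hmox1 changed its place among the 10 genes. In Tumor it averaged 23.4 ± 1.92 FPKM beside 69.3 ± 5.14 FPKM of Nfe2l2, and in Control 69.1 ± 15.7 FPKM beside 69.2 ± 4.82 FPKM of Nfe2l2 (SD, n = 3 each). The ratio of Hmox1 to Nfe2l2 FPKM was 0.288, 0.382 and 0.349 in the Tumor libraries, against 1.31, 0.740 and 0.981 in the Control libraries. The Tumor ratios lay below all Control ratios. The length trend remains in these ratios. In CPM, the uncorrected log2 fold change minus the corrected one was -0.19 for Hmox1 and -0.061 for Nfe2l2.

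Srxn1 (NCBI gene 76650; chr2:152105524-152111376, plus strand) encodes sulfiredoxin, which restores overoxidized peroxiredoxins. It was measured at 17.7, 18.4 and 29.3 CPM in Tumor, against 52.7, 44.5 and 55.5 CPM in Control. Each Tumor library lay below each Control library, with Tumor replicate 3 nearest to Control. The log2 fold change was -1.22 ± 0.22 (SE) with an adjusted p of 0.0505; without the length correction it was -1.25 ± 0.22 (SE) with an adjusted p of 0.0385. Nqo1 (NCBI gene 18104; chr8:107388225-107403205, minus strand) encodes a quinone reductase and is widely used as a readout of NRF2. It stood at 7.11, 7.58 and 7.23 CPM in Tumor, against 13.0, 11.5 and 15.5 CPM in Control. Its Tumor libraries lay within a narrow band below all Control libraries. The log2 fold change was -0.86 ± 0.17 (SE) with an adjusted p of 0.0573, against -1.05 ± 0.19 (SE) and an adjusted p of 0.0385 without the correction. Both genes also passed with limma-trend on log2(FPKM + 1), where the length trend was not removed. There Srxn1 had -1.12 (adjusted p = 0.0360) and Nqo1 -0.85 (0.0347). With the DESeq2 test and the length correction both passed as well (adjusted p = 2.9e-05 and 0.0016), as did 14.4% of all genes with an adjusted p. Over 20 alternatives Srxn1 was called in 7 and Nqo1 in 8, with adjusted p of up to 0.414 and 0.364. In the length-corrected fit Srxn1 passed without Tumor replicate 1 (0.0447), and Nqo1 without Tumor replicate 1 (0.0492) or Control replicate 2 (0.0495).

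Osgin1 (NCBI gene 71839; chr8:119425882-119446257, plus strand), an oxidative stress induced growth inhibitor gene, was lower on average but the groups overlapped. It stood at 8.43, 15.1 and 36.8 CPM in the Tumor libraries 1, 2 and 3, against 57.4, 31.3 and 60.2 CPM in Control replicates 1, 2 and 3. Tumor replicate 3 lay above Control replicate 2. The log2 fold change of -1.30 ± 0.57 (SE) had an adjusted p of 0.219. It was -2.08 without Tumor replicate 3 and -0.93 without Tumor replicate 1, with adjusted p of 0.156 and 0.207. The authors' deposited table gave Osgin1 a log2 fold change of -1.42 with a q-value of 0.0373, and also listed Hmox1, Srxn1 and Nqo1 under 0.05, as it did 14.7% of the genes to which it gives a q-value.

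**Figure D3:**
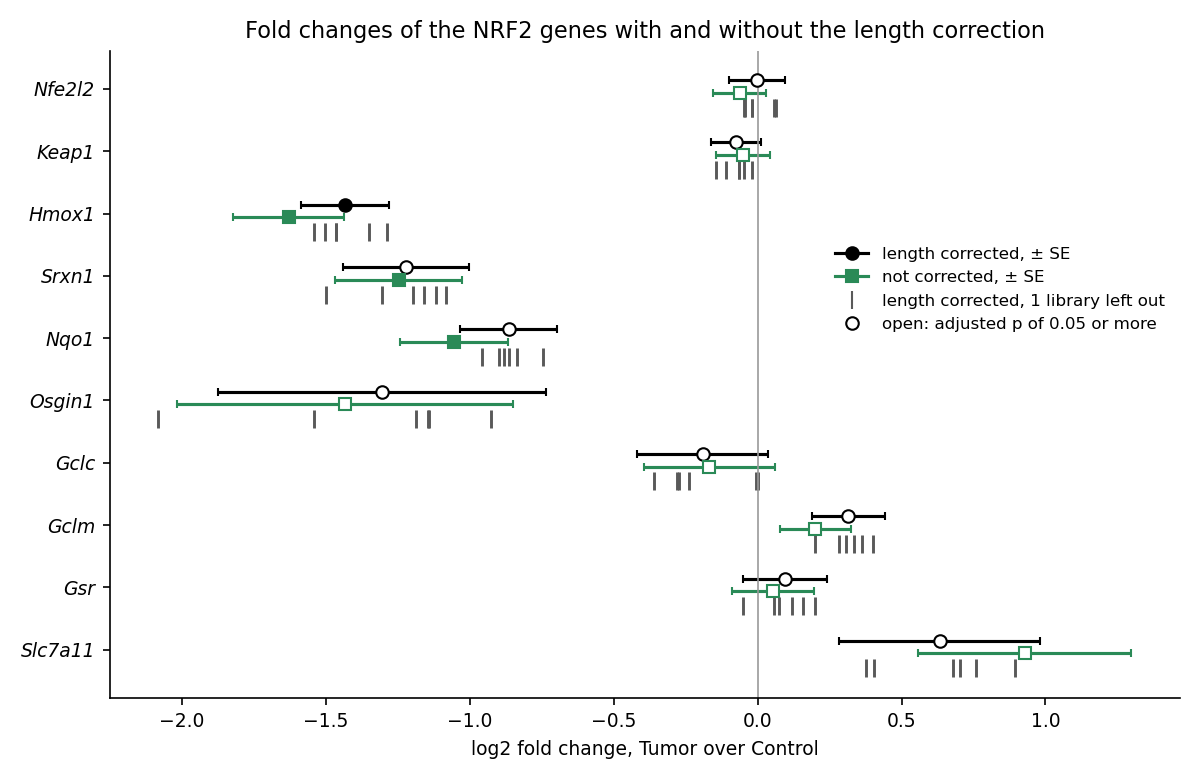
Log2 fold change of Tumor over Control for each of the 10 genes, with and without the length correction (points, bars are SE; filled where the adjusted p is under 0.05), and the length-corrected value with each library left out in turn (ticks). Hmox1 is filled in both fits and Srxn1 and Nqo1 only without the correction, while all ticks of these 3 genes stay below 0.

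Promoter sequence is shown for Srxn1 and Osgin1, with log2 fold changes of -1.22 and -1.30, and for Gclm and Nfe2l2, with 0.32 and -0.0011. Each is the RefSeq sequence (GRCm38.p6) of the 250 bases before the transcript start in that table, 5′ to 3′ on the gene's strand. Capitals mark matches on either strand to TGACNNNGC, a core form of the antioxidant response element, or to TGANTCAGC, a form bound by NRF2 with small MAF partners. The windows are chr2:152105274-152105523 (plus strand) for Srxn1, chr8:119436897-119437146 (plus) for Osgin1, chr3:122245307-122245556 (plus) for Gclm and chr2:75704664-75704913 (minus) for Nfe2l2. The Osgin1 window precedes a transcript start that lies inside the gene as its coordinates are given above, and the Gclm window runs past the gene start listed for it.
Srxn1: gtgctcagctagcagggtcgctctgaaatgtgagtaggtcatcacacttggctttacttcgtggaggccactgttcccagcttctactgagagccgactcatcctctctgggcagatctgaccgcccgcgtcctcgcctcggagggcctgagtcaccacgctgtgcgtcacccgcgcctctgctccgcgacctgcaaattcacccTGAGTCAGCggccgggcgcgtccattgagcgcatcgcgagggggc
Osgin1: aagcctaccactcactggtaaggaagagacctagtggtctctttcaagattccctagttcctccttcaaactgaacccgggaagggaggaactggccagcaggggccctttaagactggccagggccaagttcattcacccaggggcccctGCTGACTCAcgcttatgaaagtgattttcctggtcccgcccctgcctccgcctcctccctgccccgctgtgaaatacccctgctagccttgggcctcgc
Gclm: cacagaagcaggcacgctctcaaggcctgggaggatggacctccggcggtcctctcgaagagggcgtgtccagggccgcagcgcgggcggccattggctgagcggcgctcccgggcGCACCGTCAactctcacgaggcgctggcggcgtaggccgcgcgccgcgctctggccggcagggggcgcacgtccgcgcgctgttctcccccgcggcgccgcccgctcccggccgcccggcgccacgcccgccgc
Nfe2l2: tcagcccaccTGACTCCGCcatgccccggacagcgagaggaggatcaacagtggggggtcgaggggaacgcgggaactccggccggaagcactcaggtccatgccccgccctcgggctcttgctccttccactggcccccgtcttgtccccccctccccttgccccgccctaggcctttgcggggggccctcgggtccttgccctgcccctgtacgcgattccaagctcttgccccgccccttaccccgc
The table of promoters held 7 of the 10 genes, without Hmox1, Gclc and Gsr. TGANTCAGC occurred in the Srxn1 window, at bases 45 to 37 upstream of the transcript start, and in the Osgin1 window, at bases 99 to 91 upstream on the opposite strand; both read TGAGTCAGC. TGACNNNGC occurred in the Gclm window, as TGACGGTGC at bases 134 to 126 upstream on the opposite strand, and in the Nfe2l2 window, as TGACTCCGC at bases 240 to 232 upstream. Over all 32851 promoters in the table, the same windows held TGANTCAGC in 1.02% and TGACNNNGC in 10.2%. The motif forms were chosen after the values were seen, a match of letters is a description and not a binding site, and Nqo1, Keap1 and Slc7a11 held neither form in these windows.

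The 3 glutathione genes among the 10 did not pass in either fit. Gclc (NCBI gene 14629; chr9:77754535-77794489, plus strand), the catalytic subunit of the enzyme that joins glutamate and cysteine, was measured at 113, 164 and 188 CPM in Tumor, against 157, 218 and 155 CPM in Control. The groups overlapped, with Tumor replicate 1 lowest and Control replicate 2 highest. Its log2 fold change was -0.19 ± 0.23 (SE), with an adjusted p of 0.652, and without Tumor replicate 1 it was 0.00035. Gclm (NCBI gene 14630; chr3:122245487-122267215, plus strand), the modifier subunit of the same enzyme, stood at 50.5, 37.6 and 41.7 CPM in Tumor, against 34.4, 36.7 and 33.2 CPM in Control. Each Tumor library lay above each Control library, by little in Tumor replicate 2. The log2 fold change was 0.32 ± 0.13 (SE) with an adjusted p of 0.183. It was 0.20 without the length correction, where the groups overlapped, 0.036 with a GC correction in its place, and 0.20 without Tumor replicate 1.

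The RNA of the 2 subunits of the glutamate-cysteine ligase was also compared as a ratio in each library. The ratio of Gclm to Gclc FPKM was 0.680, 0.349 and 0.338 in Tumor replicates 1, 2 and 3, against 0.380, 0.271 and 0.360 in Control replicates 1, 2 and 3. Only Tumor replicate 1 stood outside the other 5 libraries by more than their own range. Gsr (NCBI gene 14782; chr8:33653238-33698162, plus strand), which returns oxidized glutathione to its reduced form, was measured at 60.2, 41.9 and 47.5 CPM in Tumor, against 45.4, 50.2 and 44.4 CPM in Control. The groups overlapped and the log2 fold change was 0.10 ± 0.15 (SE), with an adjusted p of 0.734; it was -0.052 without Tumor replicate 1.

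Slc7a11 (NCBI gene 26570; chr3:50364936-50499087, minus strand), the transport subunit of the cystine and glutamate exchanger, was the least abundant of the 10 genes per length, in FPKM. It had 8.40, 5.25 and 5.74 CPM in Tumor, against 4.43, 5.51 and 2.55 CPM in Control. Control replicate 2 lay above Tumor replicate 2, so the groups overlapped. The log2 fold change of 0.63 ± 0.35 (SE) had an adjusted p of 0.308; without the length correction, where the groups did not overlap, it was 0.93 (0.149). It was 0.38 without Control replicate 3, 0.40 without Tumor replicate 1 and 0.16 with the adipocyte marker mean as a covariate. Its estimated counts of 41.6 to 181 reads per library were the only ones among the 10 genes that were not whole numbers, in all 6 libraries, so that part of them was divided between features by the authors' estimate.

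The order of the levels per length, in FPKM with the length trend not removed, differed between the groups. In Tumor the mean FPKM ran from Nfe2l2 (69.3) through Gclc (49.6), Keap1 (25.7), Hmox1 (23.4), Gclm (21.2), Gsr (19.2), Osgin1 (9.89), Srxn1 (7.96) and Nqo1 (4.66) to Slc7a11 (0.823). In Control it ran from Nfe2l2 (69.2) through Hmox1 (69.1), Gclc (53.5), Osgin1 (26.0), Keap1 (25.6), Srxn1 (18.1), Gsr (17.6), Gclm (17.6) and Nqo1 (9.25) to Slc7a11 (0.417). Among neighbours in Tumor, the ranges of Keap1 and Hmox1, Hmox1 and Gclm, Gclm and Gsr, Gsr and Osgin1, and Osgin1 and Srxn1 overlapped. In Control those of Nfe2l2 and Hmox1, Hmox1 and Gclc, Osgin1 and Keap1, Srxn1 and Gsr, and Gsr and Gclm overlapped. Only Nqo1 and Slc7a11, the 2 lowest in both groups, were separate from their neighbours on both sides in both groups.

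The same libraries were often the extremes among the 10 genes, and the share over all genes was not counted. Tumor replicate 1 was the lowest of the 6 libraries for 6 of the 10 genes (Keap1, Hmox1, Nqo1, Gclc, Srxn1 and Osgin1) and the highest for the other 3 in which it was extreme (Gclm, Slc7a11 and Gsr). Tumor replicate 3 was the highest Tumor library for Nfe2l2, Hmox1, Gclc, Srxn1 and Osgin1. Control replicate 2 was the lowest Control library for Keap1, Hmox1, Nqo1, Srxn1 and Osgin1. It was the highest Control library for Nfe2l2, Gclc, Gclm, Slc7a11 and Gsr.

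At the level of transcripts, Nfe2l2, Hmox1, Nqo1, Srxn1 and Gsr had 1 listed transcript each. Keap1 had 4, of which NM_001110307.1 took 80.8% to 85.6% of the gene's estimated reads in Tumor and 82.2% to 84.6% in Control. Gclc was divided about evenly, with NM_010295.2 at 51.0% to 55.2% in Tumor and 50.7% to 60.3% in Control. For Osgin1 the transcript NM_027950.2 took 64.6%, 66.3% and 91.2% in Tumor replicates 1, 2 and 3, and 87.1%, 85.2% and 85.7% in Control replicates 1, 2 and 3. The 2 Tumor libraries with the lowest Osgin1 levels therefore also had the lowest share of that transcript, at 99.5 and 182 estimated reads, against 591 in Tumor replicate 3. Shares rest on single reads of 50 bases that fit several transcripts, and were not tested. For Slc7a11 the main transcript changed between libraries at these low counts, and no share is given.

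Of 76 other genes of the pathway and its neighbours, all tested, 1 fell, none rose and 75 did not pass, next to the 2.29% of all genes called. At an unadjusted p under 0.05 edgeR counted 22 of 76 in either direction, a share near the 25.6% of all tested genes. Of these 22, 16 were lower and 6 higher. For the lower genes, 16 of 76 is a larger share than the 12.7% of all tested genes. This difference was not tested, and the lists were chosen with earlier results of these data known. The counts by list below read against the same shares. Without the length correction 7 fell and 1 rose, 8 of 76, where 7.71% of all tested genes were called. With DESeq2 14 of the 76 passed, where 14.4% of all genes with an adjusted p did, and with limma-trend on log2(FPKM + 1) 9 passed, where 8.50% of all tested genes did. Among 17 other regulators and partners of NRF2 none passed, with a median log2 fold change of 0.04 and with 2 lower and 3 higher at an unadjusted p under 0.05. Sqstm1, the p62 adaptor that can sequester KEAP1, was measured at 409, 503 and 573 CPM in Tumor, against 653, 674 and 666 CPM in Control. Its Tumor libraries lay below all Control libraries, with a log2 fold change of -0.42 and an adjusted p of 0.121. Dpp3, a peptidase that binds KEAP1, had -0.46 (adjusted p = 0.0912) and Crebbp, an acetyltransferase coactivator, had 0.42 (0.0973), and 0.76 (0.0374) without the length correction.

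Among 12 other targets in thiol redox control none passed, with a median log2 fold change of -0.17 and with 3 lower and 1 higher at an unadjusted p under 0.05. Gss, which completes glutathione synthesis after the GCLC and GCLM enzyme, stood at 19.1, 16.0 and 14.9 CPM in Tumor, against 28.7, 24.2 and 27.5 CPM in Control. The groups did not overlap, and its log2 fold change of -0.69 ± 0.14 (SE) had an adjusted p of 0.0588, against -0.83 and 0.0385 without the correction. Txn1, thioredoxin, had -0.41 (adjusted p = 0.0684), while Txnrd1, the reductase that recharges it, had 0.27 (0.118). Among 6 genes of NADPH supply none passed, with 3 lower and 0 higher at an unadjusted p under 0.05; Idh1 had -0.95 (adjusted p = 0.0678), the malic enzyme gene Me1 -1.32 (0.107) and Taldo1 -0.41 (0.190). Among 16 genes of detoxification and export none passed, with a median of -0.26 and with 4 lower and 0 higher at an unadjusted p under 0.05. Esd had -0.48 (adjusted p = 0.0563), Ptgr1 -0.59 (0.0633) and Gstm1 -0.49 (0.0760), and each passed without the correction.

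**Figure D4:**
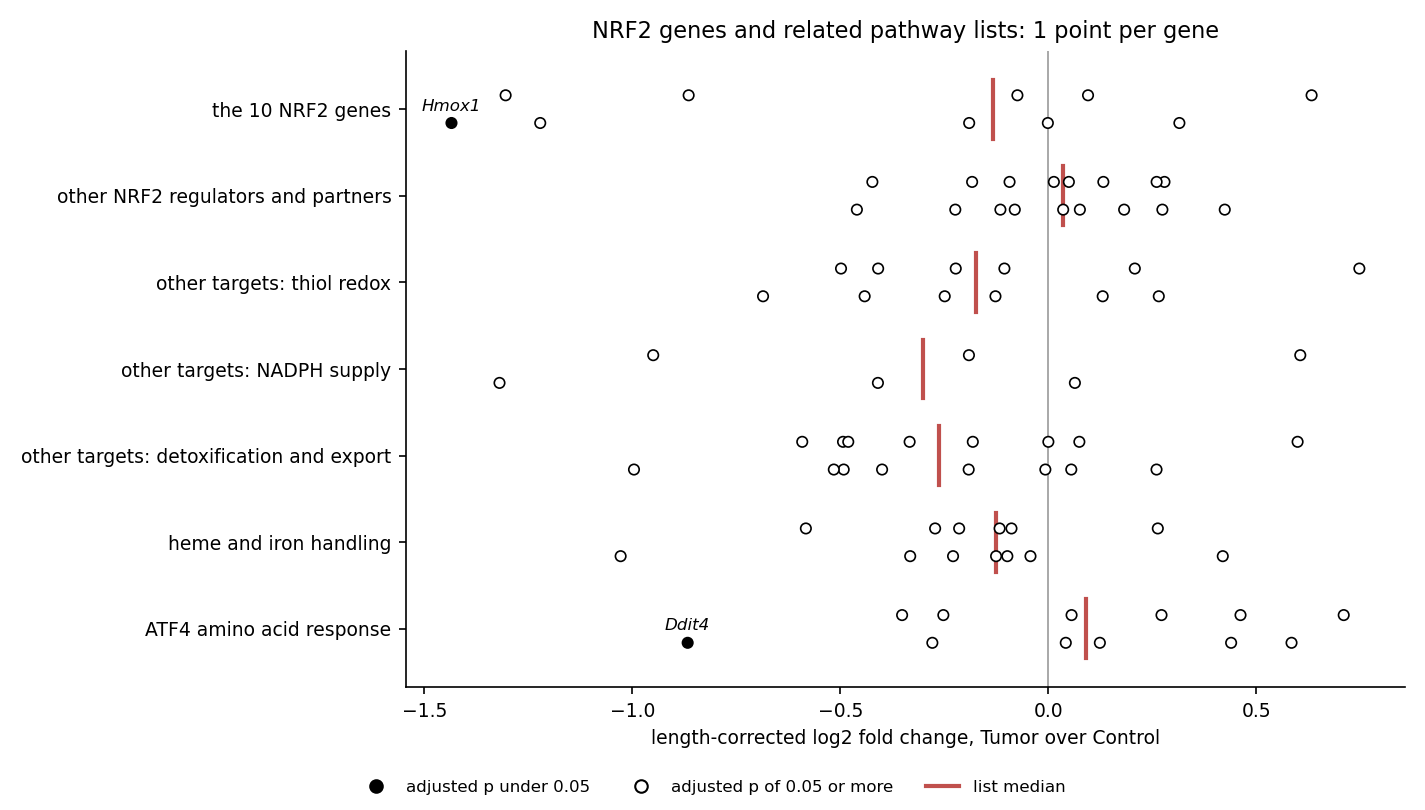
Length-corrected log2 fold changes of Tumor over Control for the 10 NRF2 genes and 6 related gene lists, 1 point per gene, filled where the adjusted p is under 0.05, with a bar at each list's median. Hmox1 and Ddit4 are the filled points, and the medians lie between -0.30 and 0.09.

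Around heme, the substrate of heme oxygenase, none of 13 genes passed, with 3 lower and 2 higher at an unadjusted p under 0.05, and 11 had a log2 fold change below 0, as did 50.2% of all tested genes. Alas1, which starts heme synthesis, stood at 152, 82.4 and 170 CPM in Tumor, against 283, 304 and 238 CPM in Control. Each Tumor library was lower than each Control library, and its log2 fold change of -1.03 ± 0.28 (SE) had an adjusted p of 0.0973. Fech, which inserts the iron, had -0.21 (adjusted p = 0.129), and Ftl1, a ferritin chain that stores the iron heme oxygenase frees, had -0.33 (0.147). The 2 genes higher at an unadjusted p under 0.05 were Fth1, another ferritin chain, and Tfrc. Fth1 had 0.26 (adjusted p = 0.157), and -0.033 without the length correction, and Tfrc had 0.42 (0.165). Of 12 genes of the ATF4 amino acid response, which shares Slc7a11 with NRF2, Ddit4 fell and 11 did not pass. Ddit4, a stress-induced inhibitor of mTORC1, was measured at 32.2, 33.4 and 26.5 CPM in Tumor, against 59.2, 47.0 and 61.7 CPM in Control. It fell by 0.87 ± 0.14 (SE) on the log2 scale with an adjusted p of 0.0459, and its call ended in the same 4 leave-one-out fits as that of Hmox1. The Ddit4 call also ended with GC added to the length correction (0.0511) and with the macrophage (0.0713), adipocyte (0.341) or luteal (0.175) mean as a covariate. Asns, Sesn2 and Phgdh had 0.44, -0.35 and 0.27, with adjusted p of 0.306, 0.276 and 0.337.

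Over the 6 libraries, the genes outside these lists whose levels were most like those of Hmox1 were Rpp25, Hcfc1r1 and Chid1, with Pearson's r of length-corrected log2 CPM of 0.998, 0.997 and 0.996. Of 13726 genes compared, 981 reached an r of 0.9 with Hmox1, and 40 with Nfe2l2. For Nfe2l2 the closest were Ttc32, Cmah and Lactb2, at 0.988, 0.981 and 0.975. These values describe 6 libraries in 2 groups, which share their group difference.

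Markers of other cell types moved with some of these results. For macrophages, which express Hmox1, none of 12 markers passed and none was at 0. Their summed CPM was 362 to 578 in Tumor and 457 to 682 in Control. With the macrophage mean as a covariate Hmox1 had -1.47 (adjusted p = 0.0443), in a fit where 240 genes of the whole table passed. Of 10 luteal markers 2 fell, none was at 0, and the sums did not overlap, at 2785 to 9413 CPM in Tumor and 15834 to 16434 CPM in Control. With the luteal mean as a covariate Hmox1 had -1.40 (adjusted p = 0.213), Srxn1 -0.97 (0.414), Nqo1 -1.09 (0.280) and Osgin1 -0.34 (0.911), in a fit where 8 genes of the whole table passed. Of 11 tested adipocyte markers none passed, with sums of 1053 to 9323 CPM in Tumor and 725 to 943 CPM in Control, and Ucp1 was at 0 in at least 1 library. With their mean as a covariate Hmox1 had -1.27 (adjusted p = 0.333), in a fit where 1 gene passed. Oviduct markers summed to between 47.0 and 2107 CPM in Tumor and between 523 and 2239 CPM in Control. None of 10 was called and none was at 0. With the oviduct mean as a covariate Hmox1, Srxn1, Nqo1 and Osgin1 all passed, in a fit where 1399 genes of the whole table passed. Of 12 oocyte markers 4 rose (Gdf9, Ooep, Npm2 and Dazl, by 0.91, 0.92, 0.99 and 1.35 on the log2 scale), and of 12 granulosa markers Esr2 rose by 1.09. No theca, surface epithelium or endothelium marker passed or was at 0. Their summed CPM was 1562 to 4914 in Tumor and 3670 to 6479 in Control for 7 theca genes, 235 to 748 in Tumor and 463 to 751 in Control for 8 surface epithelium genes, and 388 to 466 in Tumor and 472 to 503 in Control for 7 endothelium genes, where the sums did not overlap. The luteal and the adipocyte sums each separated all Tumor from all Control libraries, so those fits cannot tell these markers from the group. The SE of Hmox1 was 0.38 with the luteal mean and 0.25 with the adipocyte mean, against 0.15 without a covariate. The part of these cell types in the results was not tested.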

How the data were processed

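Trizol RNA was sequenced as single reads of 50 bases on an MGIseq500, per the labels' protocols. The submitters' processing notes name RSEM 1.2.12, Bowtie2 2.2.5, HISAT2 2.0.4 and the build GRCm38.p6 without their roles; for strand and RNA selection nothing is given in the sources used here. The authors deposited estimated counts, FPKM and TPM per gene, estimated counts and FPKM per transcript, and a DESeq2 table of log2 fold changes with its q-values and p-values, as the file headers name them; 24 further columns of per-sample values and the authors' group means were not used, and the TPM entered no comparison. Per the file headers that table is named Control against Tumor, and its values are positive where Tumor is higher.

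Estimated counts were rounded to whole numbers. filterByExpr of edgeR 4.0.16 (R 4.3.3) kept 15787 genes, scaled by TMM. Effective lengths came from the deposited counts and FPKM at FPKM of at least 0.1, for 15775 tested genes. In each library a loess (span 0.3) of the log2 CPM deviation (prior count 2) on log2 length entered the quasi-likelihood fit as an offset; the group was its only term. Benjamini-Hochberg adjustment ran over all tested genes, at 0.05. The standard error is the absolute log2 fold change over the square root of F. Replicates are taken as separate animals because the labels list them so; the p-values measure the spread between these samples only. Tested on simulated data for Tumor against Control (15628 genes), the fit recovered 72% of 100 genes set to a 4-fold change and 41% of 100 set to a 2-fold change. The simulated counts were drawn independently for each gene and library. They lack the shared marker differences between the real libraries, so recovery in the real data can differ. GC content came from the longest GENCODE M21 transcript, for 97.1% of tested genes. Alternatives used DESeq2 1.42.0 and limma 3.58.1. Coordinates are those of the GRCm38.p6 RefSeq table, and strands those of GENCODE M21. The 10 genes, the lists and the markers were chosen with earlier results of these data known. Beside the 10 genes, each list names its called genes and up to 3 more with the smallest p. Fth1 and Tfrc are named in addition. The most similar genes are the 3 with the highest Pearson's r at an average log2 CPM of at least 1. The result of 1 marker list is not reported here.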

Additional observations from a re-analysis of the deposited data

How the results depend on the processing

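Under alternatives, the number of genes changed over the whole table (361) was 1217 without the length correction, 775 with GC in place of length, 2233 with the DESeq2 test, 1342 and 1336 with limma-trend on log2 FPKM plus 1 and plus 0.1, 0 with the replicate block (3415 at an unadjusted p under 0.05), 1, 1399, 240 and 8 with the adipocyte, oviduct, macrophage and luteal means as covariates, and 0 to 1410 with 1 library left out. Of the 10 NRF2 genes (1 called), the count was 3 without length, with GC in its place, with DESeq2 and with both limma fits, 4 with the oviduct mean, and 0 with the adipocyte or luteal mean or the replicate block; it was 0 to 3 with 1 library left out. Of the 76 other pathway genes (1 called), it was 8 without length, 9 with GC in its place and with both limma fits, 14 with DESeq2, 10 with the oviduct mean, and 0 with GC and length, the adipocyte mean or the replicate block; it was 0 to 8 with 1 library left out. The other alternatives kept these counts within 1.5 times. The replicate numbers were not taken as pairs. The correlation of deviations from the group mean in same-numbered Tumor and Control libraries was 0.24, -0.22 and 0.53. Other pairs ranged from -0.56 to 0.35. Deviations of 3 libraries sum to 0 in each group, so these values depend on each other and cannot decide pairing. With the replicate block Hmox1 had -1.42 (adjusted p = 0.106) and Ddit4 -0.86 (0.127), and neither was called.

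Hmox1 stayed between -1.63 and -1.27 over its 20 alternatives and was called in 13. No alternative turned the sign of Hmox1, Srxn1, Nqo1, Osgin1, Gclm or Slc7a11. Signs turned for Nfe2l2, Keap1 and Gsr, which lay near 0 in the length-corrected fit (-0.0011, -0.074 and 0.095). Signs also turned for genes farther from 0 in that fit: Gclc (-0.19), Sqstm1 (-0.42), Asns (0.44) and Phgdh (0.27). Nfe2l2 had 0.0010 in both limma fits and 0.020 and 0.052 with the oviduct and luteal means, and lay between -0.046 and 0.065 with 1 library left out. Keap1 had 0.15 with GC, 0.098 with GC and length, 0.0018 in both limma fits and 0.080 with the adipocyte mean. Gclc had 0.93 with the luteal mean, and -0.36 to 0.00035 with 1 library left out. Gsr had -0.25 and -0.26 with the adipocyte and luteal means, and -0.052 to 0.20 with 1 library left out. Sqstm1 had 0.039 and Phgdh -0.31 with the luteal mean, and Asns -0.23 and -0.26 with the adipocyte and luteal means. The cause of these shifts was not tested. With 1 library left out, 1 group holds 2 libraries.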
